A study of Mus musculus with 25 samples.

Results

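The 10 genes described here encode lipid-sensing nuclear receptors and 4 classical products of their target genes: the peroxisome proliferator-activated receptors Pparg and Ppard, the liver X receptors (LXR) Nr1h3 and Nr1h2, their dimer partners Rxra and Rxrb, and the targets Abca1, Abcg1, Mylip and Apoe. Their rows were picked by gene symbol, a rule that uses no measured value, but the 10 genes were chosen with earlier results of these data known. All 10 were found among the 38087 genes of each of the 2 tables used. One table covers leukocytes sorted by flow cytometry from the tibialis anterior muscle of male C57BL/6J mice 2 to 4 months old, injured by injection of cardiotoxin, a snake venom toxin that destroys muscle fibres. Its groups are Ly6Chigh F4/80low macrophages at day 2 (3 samples) and day 4 (2 samples) after injury, Ly6Clow F4/80high macrophages at day 2 (3 samples) and day 4 (2 samples), and Ly6Ghigh neutrophils at day 1 (3 samples). The other table covers macrophages grown from C57BL/6J male bone marrow (BMDM) with macrophage colony-stimulating factor, left without that factor for a day, and then kept untreated (3 libraries) or given 10 nM resolvin D2 (RvD2), a lipid that derives from docosahexaenoic acid and acts in the resolution of inflammation, for 4 h (3 libraries).

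PPAR and LXR proteins sit on DNA as pairs with an RXR protein and change transcription when a lipid binds them. PPAR proteins sense fatty acids and their oxidised products, and LXR proteins sense oxysterols and desmosterol, so that a macrophage that has taken up dead cells and their cholesterol can switch on cholesterol export. Abca1 and Abcg1 encode pumps that move cholesterol out of the cell, Apoe encodes apolipoprotein E, which accepts and carries it, and Mylip (also called Idol) encodes a ubiquitin ligase that removes lipoprotein receptors from the cell surface. Macrophages that clear injured muscle take up large amounts of dead cell membrane, which is why these receptors are studied in muscle repair.

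LXR with RXR binds a direct repeat of a 6-base core. The promoter of Abca1 is shown because it was the only member promoter in which a letter search found the variant of such a repeat given below. The stretch is the 250 bases before the RefSeq start of Abca1 (GRCm38.p6, chr4:53159896-53160145, minus strand), read in the direction of transcription, and the capitals mark the match.
Abca1 promoter: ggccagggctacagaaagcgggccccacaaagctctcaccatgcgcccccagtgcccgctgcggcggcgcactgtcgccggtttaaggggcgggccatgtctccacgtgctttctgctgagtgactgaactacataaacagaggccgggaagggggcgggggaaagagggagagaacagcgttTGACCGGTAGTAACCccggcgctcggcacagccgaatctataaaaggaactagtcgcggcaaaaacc
The capitals lie 67 to 53 bases before the start and match, on the opposite strand, GGTTA followed by any 5 bases and GGTCA. Both strands of the 250 bases before each start were searched. The pattern occurred in 15 of 32851 RefSeq promoters (0.0457%), and in 1 of the 16 promoters listed for 9 of the 10 genes. Only this 1 variant was searched beside the repeats of AGGTCA given below, so its rate does not tell how often other variants occur. How the variant was chosen is not recorded, and a pattern taken from a site of this promoter would match it by design. The match in Abca1 and the low rate are therefore a description and no support for LXR binding. The single core AGGTCA was found in 3 of the 16 promoters, 2 of Pparg and 1 of Rxra, against 14.0% of all promoters. A direct repeat of AGGTCA with 4 bases between the copies (in 0.0152% of promoters), or with 1 base between them (in 0.0335%), was found in none of the 16. GGTCA is also the end of AGGTCA, so matches to these motifs can overlap. They are letter matches and not measured binding sites.

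Values in both tables are log2 normalised read counts. In the muscle table each column is the authors' mean of a group, so there is no error and no test for muscle, the read depth is unknown, and no muscle difference could be set against the spread between replicates. Muscle ratios below are log2 ratios after adding 10 normalised counts to each group, and a gene is called higher or lower when this ratio was 2-fold or more and at least 1 group reached 50 normalised counts. The macrophage columns each added up to between 11.9 and 12.8 M (mega) normalised counts and the neutrophil column to 26.0 M, and the BMDM libraries had an estimated 9.05 to 14.3 M gene reads. All 10 macrophage markers were above 0 in all 5 muscle groups. Neutrophil markers summed to 429775 normalised counts in neutrophils and 2417 to 3062 in the macrophage groups, where Ly6g, Camp and Ngp were at 0. Summed markers of fibroblasts, T and NK cells, dendritic cells, B cells and skeletal muscle were higher at day 4 than at day 2 in both macrophage subsets. Those of neutrophils and adipocytes were higher in one and lower in the other. Endothelial markers went from 577 to 1241 normalised counts in Ly6Chigh cells and were nearly level in Ly6Clow cells (483 and 488). The median log2 ratio of day 4 to day 2 over the 6 neutrophil markers tested was -1.13 in Ly6Chigh and -1.52 in Ly6Clow cells. Csf3r (log2 11.21) carried most of the neutrophil sum in Ly6Clow cells at day 4. At day 4 Adipor2 was the only adipocyte marker above 0 in both subsets. The 7 erythroid and platelet markers were lower at day 4 in both, from 3815 to 910 normalised counts in Ly6Chigh cells and from 12134 to 4913 in Ly6Clow cells. In such bulk samples fewer cells of a type and less RNA per cell cannot be told apart. Markers of fibroblasts (11 genes) went from 288 to 26241 in Ly6Chigh cells and from 92.8 to 1862 in Ly6Clow cells. The 12 T and NK cell markers went from 66.2 to 2055 and from 34.3 to 1265, and the 10 dendritic cell markers from 1181 to 6750 and from 729 to 5011. In Ly6Clow cells at day 4 a single gene carried most of each of these last sums, Cd4 (log2 10.26) and Itgax (12.19), and Cd3e, Cd3g, Cd8a and Cd8b1 were at 0.

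In muscle macrophages the 4 target genes differed more between groups than most of the receptors. Apoe, Abcg1, Mylip and Abca1 each had their lowest macrophage level in Ly6Chigh cells at day 2 and their highest in Ly6Clow cells at day 4. Across the 4 macrophage groups the log2 levels of these targets spanned 2.85 for Apoe, 1.96 for Abcg1, 1.86 for Mylip and 1.80 for Abca1. Of the receptors only Rxra came near this, with a span of 1.39, while Nr1h2 spanned 0.19. The targets were above 0 in 16 of 16 ratios (Ly6Clow over Ly6Chigh at each day, day 4 over day 2 in each subset), and 9 of the 16 were called. The 6 receptors were above 0 in 14 of 24 such ratios, with 1 called. Of all genes tested 11.4% were called between subsets at day 2 and 7.21% at day 4. Between days 13.4% were called in Ly6Chigh and 11.3% in Ly6Clow cells. A gene with all 4 ratios above 0 was found in 16.8% of 12047 genes tested, and here in the 4 targets and, among the 6 receptors, in Nr1h3 alone. The 4 ratios are built from the same 4 columns and are therefore not independent of each other.

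**Figure D1:**
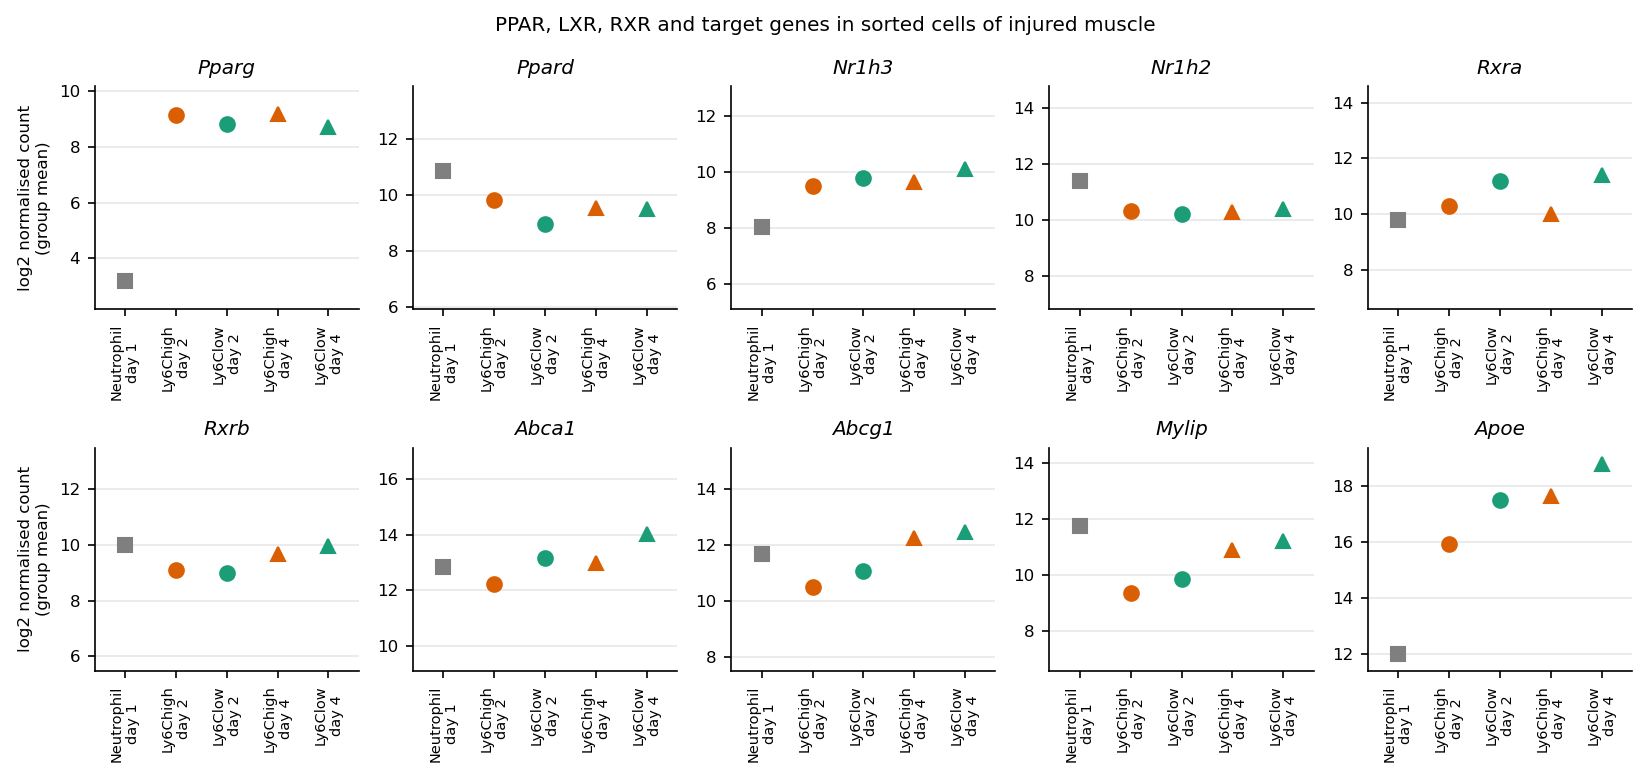
Log2 normalised count (vertical axis, group mean) of each gene in neutrophils (grey squares), Ly6Chigh macrophages (orange) and Ly6Clow macrophages (green) at day 2 (circles) and day 4 (triangles). All panels cover the same number of log2 units, and the 4 targets have their highest macrophage point in Ly6Clow cells at day 4.

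Apoe was the most abundant of the 10 genes per kb of exon in every group. Its log2 level was 15.95 in Ly6Chigh cells at day 2, 17.66 in Ly6Chigh cells at day 4, 17.51 in Ly6Clow cells at day 2, 18.80 in Ly6Clow cells at day 4 and 11.99 in neutrophils. It was thus lowest in neutrophils and higher in each later or Ly6Clow macrophage group than in Ly6Chigh cells at day 2. By normalised count Apoe ranked 10 among all genes in Ly6Chigh cells at day 2, 5 in Ly6Clow cells at day 2 and 1 in both day 4 groups. It took 0.504% of all normalised counts in the first of these groups and 3.57% in Ly6Clow cells at day 4. The log2 ratio of Ly6Clow to Ly6Chigh cells was 1.56 at day 2 and 1.13 at day 4. The ratio of day 4 to day 2 was 1.72 in Ly6Chigh and 1.28 in Ly6Clow cells. Apoe was the only one of the 10 genes called in each of these 4 comparisons, and the difference from end to end (Ly6Clow day 4 over Ly6Chigh day 2) was 7.20-fold.

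Abca1, the pump that loads cholesterol onto lipid-poor apolipoproteins, differed about as much between subsets as between days. Its log2 level was 12.22 in Ly6Chigh cells at day 2, 12.97 in Ly6Chigh cells at day 4, 13.18 in Ly6Clow cells at day 2, 14.02 in Ly6Clow cells at day 4 and 12.85 in neutrophils. The neutrophil level therefore lay inside the macrophage range. Ly6Clow cells exceeded Ly6Chigh cells by 0.96 at day 2, just under the 2-fold line of 1, and by 1.05 at day 4, just over it. With all columns rescaled to equal totals the day 4 value was 0.94, also under the line. From day 2 to day 4 the ratio was 0.75 in Ly6Chigh and 0.84 in Ly6Clow cells, neither of them called.

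Abcg1 and Mylip followed the day after injury rather than the subset. Abcg1, the pump that hands cholesterol to high-density lipoprotein, was at log2 10.52 and 12.28 in Ly6Chigh cells at days 2 and 4, at 11.07 and 12.48 in Ly6Clow cells, and at 11.68 in neutrophils. Both day 4 groups lay above both day 2 groups, and neutrophils lay between. Its ratio of day 4 to day 2 was 1.75 in Ly6Chigh and 1.41 in Ly6Clow cells, while its subset ratio was 0.54 at day 2 and 0.20 at day 4. Mylip was at 9.37 and 10.92 in Ly6Chigh cells, at 9.87 and 11.23 in Ly6Clow cells, and at 11.77 in neutrophils, its highest group as deposited. Its day ratio was 1.53 in Ly6Chigh and 1.35 in Ly6Clow cells, and its subset ratio was 0.49 and 0.31. Averaged over both settings, the day ratio was 1.58 for Abcg1, 1.44 for Mylip, 1.50 for Apoe and 0.79 for Abca1, and the subset ratio was 0.37, 0.40, 1.35 and 1.00 in the same order. The markers of fibroblasts, T and NK cells and dendritic cells given above also differed between the days, and their part in these day ratios was not tested.

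Rxra was the receptor that differed most between the subsets. Its log2 level was 10.29 in Ly6Chigh cells at day 2 and 10.00 at day 4, against 11.21 and 11.39 in Ly6Clow cells, with neutrophils at 9.79. Both Ly6Clow groups lay above both Ly6Chigh groups. The subset ratio was 0.91 at day 2 and 1.38 at day 4 (2.61-fold, called), and the day ratios were small, at -0.29 in Ly6Chigh and 0.18 in Ly6Clow cells. Rxrb, the other RXR, showed the opposite layout, following the day. It was at 9.08 and 9.68 in Ly6Chigh cells, at 8.97 and 9.94 in Ly6Clow cells and at 9.99 in neutrophils. Its day ratios were 0.59 and 0.96, under the 2-fold line, and its subset ratios were -0.11 and 0.26.

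The LXR genes differed less. Nr1h3 (LXR alpha, the LXR form found mainly in macrophages, liver and fat) was at log2 9.50 and 9.65 in Ly6Chigh cells at days 2 and 4, at 9.78 and 10.14 in Ly6Clow cells and at 8.04 in neutrophils. Its 4 macrophage groups stood in the same order as those of Abca1, but its end-to-end ratio was 0.63 and no macrophage ratio was called. Nr1h2 (LXR beta, expressed in most tissues) was nearly level in macrophages, at 10.32, 10.27, 10.20 and 10.40 in Ly6Chigh day 2 and day 4 and Ly6Clow day 2 and day 4, and stood at 11.39 in neutrophils. The exons of Nr1h3 overlap those of Gm13783 on the same strand, so its reads may be shared with that gene.

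Neither PPAR gene was called between any macrophage groups. Pparg, a receptor tied to lipid uptake and repair functions in macrophages, was at log2 9.13 and 9.17 in Ly6Chigh cells at days 2 and 4, at 8.83 and 8.72 in Ly6Clow cells, and at 3.18 in neutrophils. Its subset ratio was -0.30 at day 2 and -0.44 at day 4, so it was slightly lower where the targets were highest, and neither ratio was called. Ppard, the PPAR expressed in most tissues, was at 9.84 and 9.53 in Ly6Chigh cells, at 8.95 and 9.49 in Ly6Clow cells, and at 10.85 in neutrophils. Its subset ratio was -0.87 at day 2 and -0.04 at day 4, and its day ratio was -0.30 in Ly6Chigh and 0.52 in Ly6Clow cells. Pparg is also the master regulator of fat cells. Of the 8 adipocyte markers 6, 7, 5 and 7 were at 0 in Ly6Chigh day 2, Ly6Chigh day 4, Ly6Clow day 2 and Ly6Clow day 4, among them Adipoq, Plin1, Cidec and Lep in all 4.

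Among the 10 genes 1 was called between subsets at day 2 (Apoe), where 11.4% of all genes tested were called (5.9% higher, 5.46% lower). At day 4 there were 3 (Rxra, Abca1, Apoe), against 7.21% of genes (2.98% higher, 4.22% lower). Between days, 3 were called in Ly6Chigh cells (Abcg1, Mylip, Apoe), against 13.4% of genes (9.67% higher, 3.74% lower). The same 3 were called in Ly6Clow cells, against 11.3% (8.08% higher, 3.24% lower). From Ly6Chigh day 2 to Ly6Clow day 4, 5 were called (Rxra, Abca1, Abcg1, Mylip, Apoe), against 19.2% (12.6% higher, 6.66% lower). All of these were higher in the Ly6Clow or day 4 group. The median ratio over the 10 genes was 0.38, 0.28, 0.37, 0.68 and 0.97 in these 5 comparisons, while the median over all genes tested lay between -0.03 and 0.01. With columns rescaled to equal totals this median went from 0.01 to -0.09 between subsets at day 4.

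**Figure D2:**
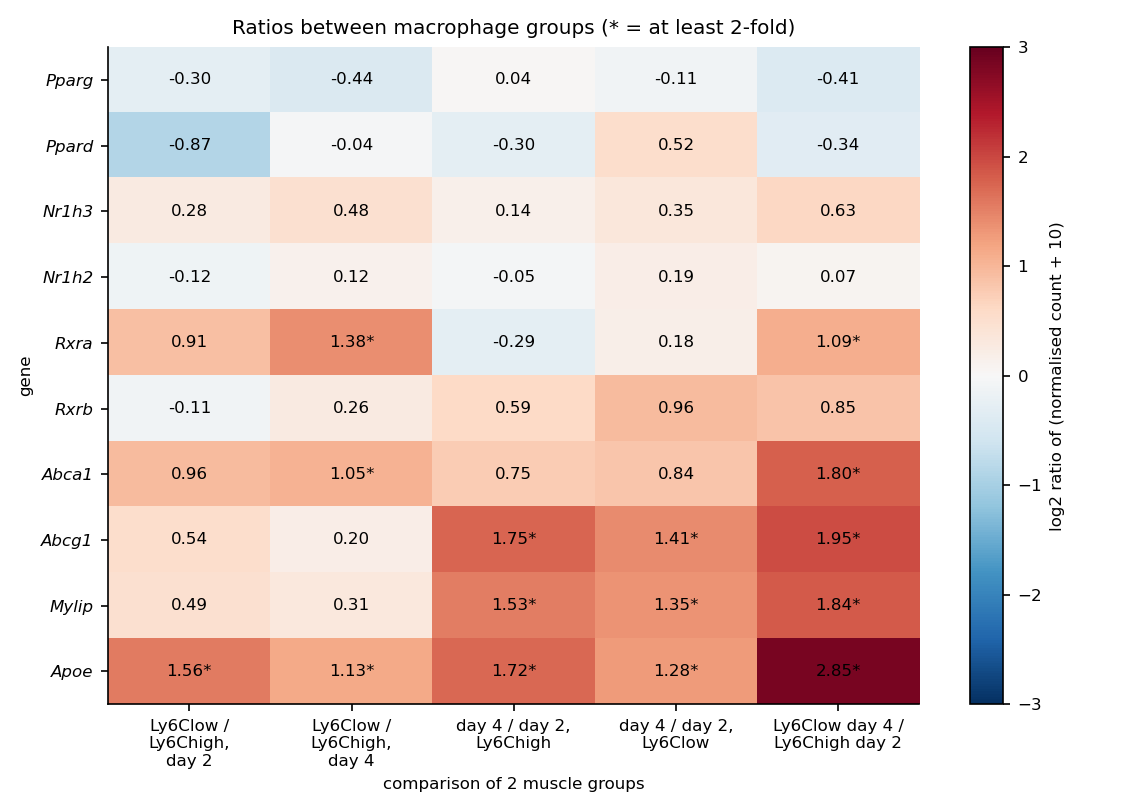
Log2 ratio of (normalised count + 10) for each gene (rows) in 5 comparisons of macrophage groups (columns), with red for higher in the first-named group, blue for lower, and a star for at least 2-fold. The stars sit in the 4 target rows and in the Rxra row, and the largest value is 2.85 for Apoe.

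Levels of different genes were compared per kb of merged exon, which allows the paired forms of each receptor to be set side by side. In Ly6Chigh cells at day 2 the order of the receptors was Nr1h2 (382 normalised counts per kb), Nr1h3 (288), Rxra (229), Pparg (190), Rxrb (136) and Ppard (122). In Ly6Clow cells at day 4 Rxra came first (491), before Nr1h3 (447), Nr1h2 (402), Rxrb (248), Pparg (143) and Ppard (95.6). The per-kb ratio of Nr1h3 to Nr1h2 was 0.754 and 0.864 in Ly6Chigh cells at days 2 and 4, 0.999 and 1.11 in Ly6Clow cells, and 0.131 in neutrophils. The 2 LXR genes thus stood near parity in Ly6Clow cells, and Nr1h2 was far ahead in neutrophils. Rxra over Rxrb was 1.68 and 0.906 in Ly6Chigh cells, 3.43 and 1.98 in Ly6Clow cells and 0.634 in neutrophils, so it was lower at day 4 than at day 2 in both subsets. Pparg over Ppard was 1.49 to 2.34 in the macrophage groups and 0.0125 in neutrophils. Among the targets Abca1 exceeded Abcg1 per kb in all 5 groups, by 2.28 and 1.14 times in Ly6Chigh cells at days 2 and 4, by 3.05 and 2.04 times in Ly6Clow cells and by 1.59 times in neutrophils. None of these ratios has an error in muscle.

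In BMDM, where each library has its own value, Nr1h3 over Nr1h2 per kb was 0.347 to 0.406 over the 6 libraries, Pparg over Ppard was 1.99 to 3.18, and Rxra over Rxrb was 1.55 to 1.81. All 6 BMDM values of the LXR ratio were lower than the ratio in any of the 4 muscle macrophage groups, where the lowest was 0.754. The tables were normalised separately, but a ratio of 2 genes within a library does not depend on that scaling. Apoe ranked 6 to 7 by count in BMDM and took 0.568 to 0.691% of the normalised counts. The BMDM libraries also held fibroblast markers, summed to 48421 to 56325 normalised counts untreated and 42567 to 66306 with RvD2. Macrophage markers summed to 103052 to 133363 and 111863 to 139236, and neutrophil markers to 5211 to 16919 and 5322 to 10571. The part of other cells in the BMDM values was not tested.

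**Figure D3:**
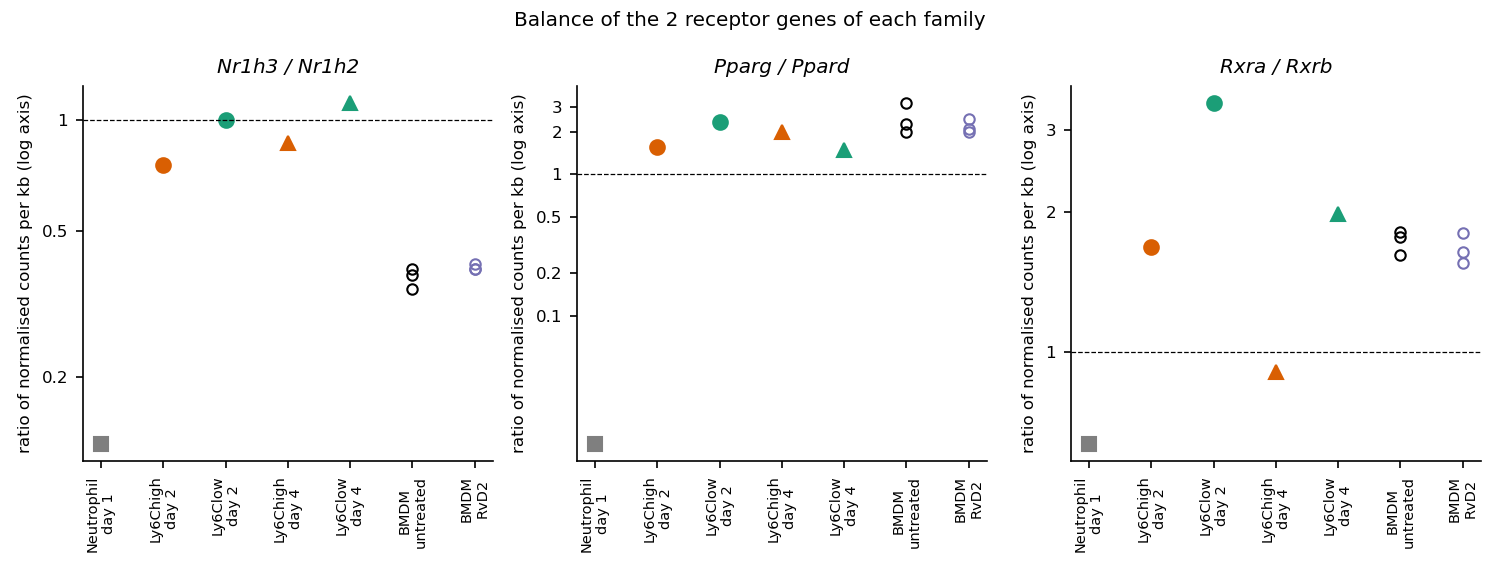
Ratio of normalised counts per kb (vertical log axis) for the 2 genes of the LXR, PPAR and RXR families in 5 muscle groups (filled, 1 group mean each) and in the BMDM libraries (open, 1 point per library); the dashed line marks equal levels. The LXR ratio is near 1 in Ly6Clow cells, and the points for BMDM (0.347 to 0.406) and neutrophils (0.131) are lower.

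In neutrophils at day 1 Pparg, Nr1h3 and Apoe were far lower than in any macrophage group, with the values as deposited and with columns rescaled to equal totals. Pparg was at 9.07 normalised counts in neutrophils, and its log2 ratio to the macrophage groups was between -4.94 and -4.50. Apoe was lower by ratios between -6.80 and -3.95, and Nr1h3 by ratios between -2.05 and -1.42. Ppard was higher as deposited, with ratios between 1.01 and 1.88, but between -0.03 and 0.84 with equal totals. These 4 genes were called against all 4 macrophage groups, which held for 46.1% of all genes tested (25.2% higher and 20.9% lower). Nr1h2 had ratios between 0.99 and 1.18, and Mylip between 0.54 and 2.39. Abca1 (-1.17 to 0.63) and Abcg1 (-0.80 to 1.15) lay inside the macrophage range as deposited.

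The neutrophil column summed to 26.0 M, more than any other column, so the scaling bears on these values. Rescaling to equal totals took the median ratio of all genes to the macrophage groups from between 0.05 and 0.15 to between -1.10 and -0.95, and the genes called in all 4 comparisons to 10.1% higher and 40.1% lower. With all columns rescaled to equal totals, Pparg, Nr1h3 and Apoe were still called lower, Rxra was called lower as well, and Ppard was no longer called. Under that scaling the ratio of Nr1h2 to Ly6Chigh cells at day 4 was -0.02, and the ratio of Rxrb to Ly6Clow cells at day 2 was -0.02. Abca1 was then below all 4 macrophage groups (-2.19 to -0.42), while Abcg1 (-1.83 to 0.10) and Mylip (-0.48 to 1.34) lay inside their range. Lower levels of Pparg, Nr1h3 and Apoe in neutrophils were thus the calls shared by both scalings. The neutrophil column also held macrophage markers at a summed 319592 normalised counts, with all 10 above 0, Emr1 (F4/80) at log2 11.07 and Csf1r at 13.42. As deposited, 6 or 7 of these 10 were called lower than in each macrophage group, against 27.6% to 30.6% of all genes. Another 2 were called higher (29.3% to 31.9% of all genes), and the list medians lay between -3.39 and -2.45. Their part in the neutrophil values was not tested.

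RvD2 moved none of the 10 genes past the test threshold in BMDM (0 of 10, limma, adjusted p under 0.05), where 1.86% of 15239 genes tested passed. At an unadjusted p under 0.05 there were 2 of the 10, Abca1 and Nr1h3, against 15.6% of all genes. Treated and untreated libraries did not overlap in 3 of the 10 (Abca1, Nr1h3 and, by a gap smaller than the decimals given here, Nr1h2), against 21.0% of all genes. Whether the libraries came from separate mice or separate cultures is not in the labels, and the p-values cover no more than the spread from library to library.

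Abca1 had the largest difference. Its log2 values were 12.07, 12.48 and 12.31 in untreated libraries 1 to 3 and 12.59, 12.89 and 12.93 in RvD2 libraries 1 to 3. All 3 treated libraries lay above all 3 untreated ones. The difference was 0.52 (SE 0.12, n = 3 per group), or 1.43-fold with a 95% interval of 1.19 to 1.73. It did not pass the threshold (limma, adjusted p = 0.0710). Over 12 alternative fits the adjusted p of Abca1 in limma ranged from 0.000519 to 0.238, and 3 of the 12 were under 0.05. With libraries rescaled to equal totals it was 0.0482, and without RvD2 replicate 1 the difference was 0.63 with an adjusted p of 0.0396 (limma).

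**Figure D4:**
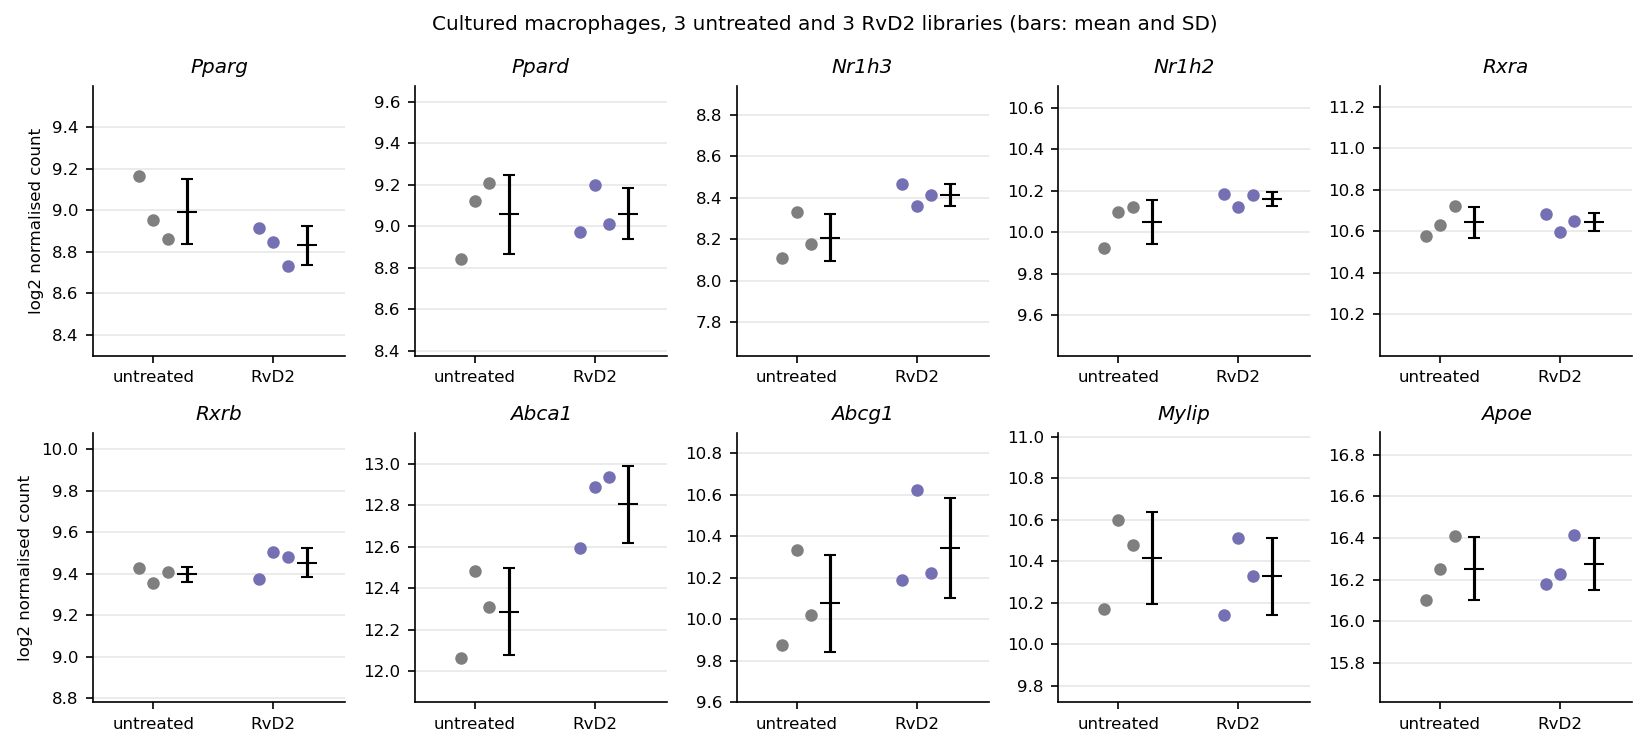
Log2 normalised count (vertical axis) of each gene in 3 untreated (grey) and 3 RvD2-treated (purple) BMDM libraries, with the mean and SD beside the points. The panels have equal height in log2 units, and the groups are apart in Abca1 and Nr1h3, and touch in Nr1h2.

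Abcg1 was at 9.88, 10.33 and 10.02 untreated and at 10.19, 10.62 and 10.22 with RvD2, and the groups overlapped. The difference was 0.27 with an interval of -0.05 to 0.59 (limma, adjusted p = 0.419). Nr1h3 was at 8.11, 8.33 and 8.18 untreated and at 8.47, 8.36 and 8.41 with RvD2. Its difference was 0.21 with an interval of 0.02 to 0.39 (limma, adjusted p = 0.268), so the groups were apart by little. Nr1h2 differed by 0.11 (interval -0.04 to 0.26), from untreated values of 9.93, 10.10 and 10.12 to treated values of 10.18, 10.12 and 10.18.

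For the remaining genes the interval bounds how large a change could have been missed. Apoe was at 16.10, 16.25 and 16.41 untreated and at 16.18, 16.23 and 16.41 with RvD2, a difference of 0.02 (interval -0.21 to 0.25). Mylip was at 10.17, 10.60 and 10.48 against 10.14, 10.51 and 10.33, a difference of -0.09 (interval -0.37 to 0.19). Rxra had the narrowest interval, -0.13 to 0.13, with values of 10.58, 10.63 and 10.72 untreated and 10.68, 10.60 and 10.65 treated. In all of these the treated libraries lay within or across the untreated range. Rxrb differed by 0.06 (interval -0.08 to 0.20), Ppard by 0.00 (-0.24 to 0.24) and Pparg by -0.16 (-0.37 to 0.05). Pparg values were 9.17, 8.95 and 8.86 untreated and 8.92, 8.85 and 8.73 treated.

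The rest of the pathway was described by 7 lists with 94 genes: other RXR partner receptors, coregulators, enzymes of oxysterol and retinoid ligands, other LXR targets, PPAR targets, substrates of the MYLIP ligase, and cholesterol trafficking. In BMDM 76 of the 94 passed the filter on low values, 2 rose and 3 fell with RvD2 (0.794% and 1.06% of all genes did so), and the median difference was -0.02, against -0.00 over all genes tested. On the MYLIP list Lrp8, which encodes the lipoprotein receptor ApoER2, was at 8.90, 9.02 and 8.81 untreated and at 7.82, 7.96 and 7.98 with RvD2. It fell by 0.99 (SE 0.083, limma, adjusted p = 0.00279), the groups being far apart. Vldlr, another substrate, did not pass, with a difference of 0.32. Mylip RNA itself differed by -0.09.

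The genes that rose were both on the PPAR target list. Angptl4, which encodes an inhibitor of lipoprotein lipase, went from 9.94, 9.97 and 9.87 to 10.46, 10.20 and 10.29, a rise of 0.39 (SE 0.073, limma, adjusted p = 0.0379). Klf4, a transcription factor gene, went from 7.93, 8.00 and 7.90 to 8.36, 8.54 and 8.45, a rise of 0.51 (SE 0.078, limma, adjusted p = 0.0173). No gene passed on the list of other LXR targets (0 of 13 tested, median -0.05), nor among coregulators (0 of 14) or other partner receptors (0 of 7).

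**Figure D5:**
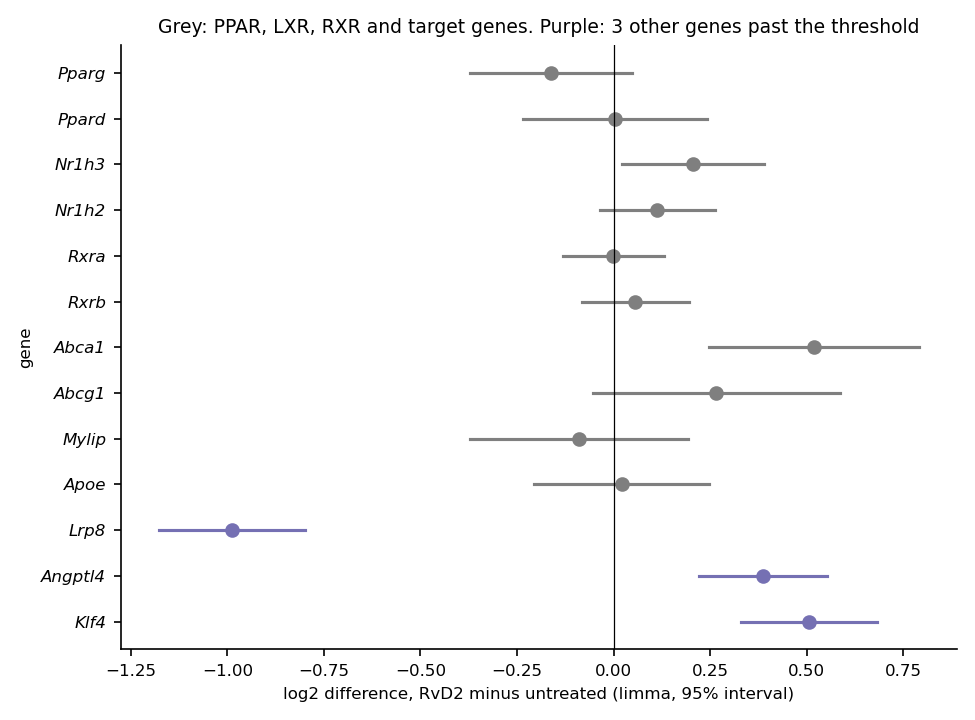
Log2 difference between RvD2 and untreated BMDM (horizontal axis; limma estimate and 95% interval, 3 libraries per group) for the 10 genes (grey) and for 3 other pathway genes past the threshold (purple). Abca1 is at 0.52 and the intervals of 8 grey genes cross 0, while Lrp8 lies at -0.99.

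These calls differed in how firmly they held. Lrp8 passed in each of 12 alternative fits, with an adjusted p (limma) between 0.000314 and 0.0369. Angptl4 passed in none of the 6 fits that left out 1 library (adjusted p over 12 limma alternatives 0.00785 to 0.132). Klf4 (0.00506 to 0.0845) passed in 1 of the 6, the fit without RvD2 replicate 1.

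LXR-linked genes of fatty acid synthesis and desaturation, singled out after their values were seen, differed among themselves. In muscle Srebf1, the LXR target that drives fatty acid synthesis, was at log2 10.37 and 10.16 in Ly6Chigh cells at days 2 and 4 and at 10.12 and 10.09 in Ly6Clow cells. Fasn, fatty acid synthase, was at 9.41 and 8.85 and at 8.84 and 8.41, so it was lowest in the group where Apoe and Abca1 were highest. The desaturase gene Scd2 lay the other way, at 9.32 and 10.55 in Ly6Chigh cells and at 9.71 and 10.54 in Ly6Clow cells, with an end-to-end ratio of 1.21 (called higher). Scd1, another desaturase gene, was low throughout, at 3.62 and 5.77 and at 3.54 and 5.47, and was called higher at day 4 in Ly6Chigh cells (1.53). In BMDM the difference with RvD2 was -0.11 for Srebf1, -0.28 for Scd1, -0.45 for Scd2 (interval -0.65 to -0.24, limma, adjusted p = 0.0505) and -0.32 for Fasn (interval -0.47 to -0.17, limma, adjusted p = 0.0533).

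In muscle, other LXR targets were called in both settings. Between subsets at day 2, 3 of 13 were higher in Ly6Clow cells and 1 was lower: Cd5l (3.27), a secreted survival factor of macrophages, Lpl (2.53), lipoprotein lipase, and Mertk (1.13), a receptor for dying cells, against Apoc1 (-1.72). Over all genes 5.9% were higher and 5.46% lower there. At day 4, 2 of 14 were higher (2.98% of all genes), Cd5l (2.29) and Mertk (1.08, but 0.97 and not called with equal totals). From day 2 to day 4, 5 of 14 were higher in Ly6Chigh cells (9.67% of all genes), led by Pltp (3.14), the phospholipid transfer protein, and Cd5l (1.54). In Ly6Clow cells 2 of 13 were higher (8.08% of all genes), Pltp (3.29) and Apoc1 (1.56). Apoc1 was low in the groups of its named calls, at log2 5.89 in Ly6Chigh cells at day 2 and at 3.46 and 5.70 in Ly6Clow cells at days 2 and 4. The median of the list was 0.36, 0.09, 0.07 and 0.25 in these 4 comparisons.

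Most PPAR targets were not called in any one comparison of macrophage groups. At day 2, 5 of 20 were higher in Ly6Clow cells (5.9% of all genes were), with a list median of 0.53. They were led by Lpl (2.53), the fatty acid uptake receptor Cd36 (2.08), Angptl4 (1.95) and the fatty acid carrier Fabp5 (1.32). Lpl is the same gene counted among the other LXR targets above, and Cd36 is also on the trafficking list. At day 4 only Cd36 (1.21) was called, higher (2.98% of all genes). From day 2 to day 4 in Ly6Clow cells 4 of 20 were lower, namely Fabp4 (-1.95), Cd36 (-1.86), Fabp5 (-1.31) and the lipid droplet gene Plin2 (-1.20), and none were higher (3.24% of all genes were lower and 8.08% higher). In Ly6Chigh cells only Angptl4 was called over those days, and it was higher (1.92; 9.67% of all genes). Cd36, for example, was at log2 12.11 and 11.13 in Ly6Chigh cells and at 14.20 and 12.34 in Ly6Clow cells, highest in Ly6Clow cells at day 2. This order differs from that of Apoe, Abca1, Abcg1 and Mylip, which were all highest in Ly6Clow cells at day 4.

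Ligand enzymes and MYLIP substrates also differed. Cyp27a1, which makes the LXR ligand 27-hydroxycholesterol, was higher at day 4 in Ly6Chigh (2.38) and Ly6Clow cells (2.95), from log2 7.96 to 10.39 and from 7.47 to 10.48. Lrp8, a MYLIP substrate, was at 7.76 and 7.88 in Ly6Chigh cells and at 7.31 and 5.79 in Ly6Clow cells. Among the macrophage groups it was lowest where Mylip was highest. In Ly6Chigh cells, however, Mylip was higher at day 4 (1.53) and Lrp8 was not lower. A link between the RNA levels of these genes was not tested. The ratio of Lrp8 in Ly6Clow cells at day 4 to Ly6Chigh cells at day 2 was -1.80. Among partner receptors Vdr, the vitamin D receptor gene, was lower in Ly6Clow cells at day 2 (-2.63) and day 4 (-1.58). Of 13 coregulators tested none (0) was called in any comparison of macrophage groups. On the trafficking list Cd36 and Lipa (1.31), the lysosomal acid lipase gene, were higher in Ly6Clow cells at day 2, and Lipa was also higher from end to end (1.07). The scavenger receptor gene Olr1 was lower in Ly6Clow cells at day 2 (-1.90) and day 4 (-2.05), and Msr1 was lower at day 4 in Ly6Chigh (-1.65) and Ly6Clow cells (-1.29).

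In neutrophils 11 of the other LXR targets were called lower against each macrophage group, of 12 or 13 tested, with list medians between -2.28 and -1.71. Of all genes 27.6%, 29.9%, 30.5% and 30.6% were lower in neutrophils than in Ly6Chigh day 2, Ly6Chigh day 4, Ly6Clow day 2 and Ly6Clow day 4, and 30.9%, 29.3%, 31.9% and 30.3% were higher. With equal totals 11 to 13 of these LXR targets were lower. Examples against Ly6Clow cells at day 4 are Pltp (-8.41), Mertk (-7.39), Cd5l (-6.92) and Lpl (-6.29). Of 20 PPAR targets 11 to 13 were lower and 1 was higher, the carnitine carrier gene Slc25a20 (2.15 to 2.59). As deposited, the neutrophil levels of Abca1 and Abcg1 stayed within the macrophage range while these other targets lay far below it. On the coregulator list 6 of 13 were called higher in neutrophils against each group, led by Ncoa2 and Tbl1xr1, but 1 to 5 with equal totals.

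The genes whose muscle pattern was most like that of each member were found by the root-mean-square distance between centred log2 values over the 5 groups, among 12837 genes. For Apoe they were Olfml3 (distance 0.19) and Fcgrt (0.23), for Rxra Blvrb (0.14) and Ctsb (0.16), and for Pparg Lpxn (0.13) and Fcgr1 (0.15). For Nr1h3 they were Scmh1 (0.031) and Zhx3 (0.062), for Abcg1 Parp11 (0.093) and Ganc (0.16), and for Mylip Trim69 (0.085) and Klhl6 (0.14). With 5 points a close distance is a description of these columns alone.

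On GRCm38/mm10 the genes lie as follows in GENCODE M21, with lengths of merged exons. Abca1 is on the minus strand of chromosome 4, from 53030787 to 53159895, with 10363 bases of merged exon. Apoe is on the minus strand of chromosome 7, from 19696109 to 19699188, with 2138 bases of exon. Rxra is on the plus strand of chromosome 2, from 27676440 to 27762957, with 5462 bases, and Nr1h3 on the minus strand of chromosome 2, from 91184061 to 91202834, with 2515 bases. Pparg is on chromosome 6, from 115360951 to 115490399, with 2953 bases, and an antisense gene, Gm44079, overlaps it outside its exons. Abcg1 is on chromosome 17, from 31057675 to 31117988, and Mylip on chromosome 13, from 45389742 to 45412022.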

How the data were processed

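Poly-A RNA was sequenced on a HiSeq instrument after TruSeq library preparation, per the labels' protocols. The submitters' processing notes name TopHat2 2.0.7, DESeq and mm10 with no roles, and the annotation for counting was not given in the sources used here. No step of the described kit marks strand, so reads of overlapping genes cannot be told apart. The authors deposited log2 normalised counts, 1 column per BMDM library and 1 group mean per muscle group, with values under 1 normalised count set to 0. Only 35.2 to 44.4% of low BMDM values were whole multiples of 1 read (within 0.02), so counts were not recovered and no count test was run.

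For BMDM (3 libraries against 3), limma 3.58.1 (R 4.3.3) was run two-sided with a mean-variance trend on genes averaging 10 or more normalised counts, with Benjamini-Hochberg adjustment over all genes tested and a threshold of 0.05. All 10 members passed that filter. The fit was tested on simulated data. Muscle ratios add 10 normalised counts, and a call needs a 2-fold difference and 50 normalised counts in the higher group. Python 3.11.15 with pandas 2.3.3 was used. Of 25 samples in 9 groups, 6 samples in 2 groups were not analysed here, and 2 muscle cells that hold a date were treated as missing. Of the gene identifiers 36308 (95.3%) were in GENCODE M21. Promoters are from RefSeq (GRCm38.p6), in which Abcg1 was not matched. All members are described in each comparison, and from each pathway list the up to 4 called genes with the largest ratios in muscle and up to 3 with the lowest adjusted p in BMDM are named. Members, lists and rules were chosen with earlier results of these data known. Some list genes that were called are not reported here by name. Equal totals for the muscle pathway lists were added after seeing the data. Alternatives were other filters, scalings, pseudocounts, no trend, a replicate block and each BMDM library left out in turn. Intervals from reads without molecular identifiers cover the spread between libraries only.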

Additional observations from a re-analysis of the deposited data

How the results depend on the processing

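No leave-one-out or paired fit could be made for muscle, where only group means were used. In BMDM the count of genes called (283) was 137 without the filter, 49 without the trend and 79 to 288 with 1 library left out. Of the 10 receptor and target genes, 0 were called, 1 with equal totals (Abca1) and 0 to 1 with 1 library left out (Abca1, without RvD2 replicate 1). Of the other pathway genes 5 were called, 2 without the filter, 1 without the trend and 1 to 4 with 1 library left out. Whether replicate numbers pair the libraries was left unsettled. Deviations of same-numbered libraries correlated at 0.290, 0.024 and 0.052, and those of differently numbered libraries at -0.261 to 0.185. The main fit used no pairing. With the replicate block, 1066 genes, 2 of the 10 (Abca1 and Abcg1) and 13 other pathway genes were called. Uncalled differences near 0 changed sign: Rxra was 0.0069 with equal totals and Ppard -0.0059 with median centring. With 1 library left out the range was -0.10 to 0.078 for Ppard, -0.054 to 0.098 for Apoe, -0.21 to 0.0044 for Mylip and -0.035 to 0.039 for Rxra. In muscle the genes called with a pseudocount of 50 were 830 (of 1281) between subsets at day 2, 552 (of 848) at day 4 and 1033 (of 1558) between days in Ly6Chigh cells, and 2346 for the last with a level of at least 10. Under equal totals the neutrophil ratios of Ppard to Ly6Chigh day 2 (-0.035), Nr1h2 to Ly6Chigh day 4 (-0.017) and Rxrb to Ly6Clow day 2 (-0.020) were below 0, since the neutrophil column holds more counts in total. The causes of the other shifts were not tested. The estimated 9.05 to 14.3 M (mega) gene reads per BMDM library, and 3 libraries per group, limit what could be called there.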
